A study of Mus musculus with 48 samples.

Results

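The comparison described here was the effect of losing p110α in hepatocytes on liver gene expression after a 24 h fast in male mice kept on a high-fat diet. Its members were chosen from the sample titles, as the 6 arrays of LKO_HFD_FASTED and the 6 arrays of LWT_HFD_FASTED, 12 of the 48 arrays of the series. LKO mice (p110αhep-/-) carried 1 copy of an albumin-Cre transgene and floxed p110α alleles, and LWT mice (p110αhep+/+) carried the floxed alleles without Cre. All mice of both groups were put on HFD (60% of calories as fat) at 12 weeks of age and kept on it for 12 weeks, were then fasted for 24 h and were killed at Zeitgeber time 16. In this model the albumin promoter drives Cre in hepatocytes, no group carried Cre without the deletion, and the deletion and the presence of Cre cannot be told apart. Each array held the liver RNA of 1 mouse, so replicates are mice, and 3 further pairs of LKO and LWT groups (fed on HFD, fasted on the control diet CTRL and fed on CTRL, 6 mice per group) were used only to show where the effect differed.

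p110α is the catalytic subunit of the phosphoinositide 3-kinase that the insulin receptor engages through insulin receptor substrates. Its lipid product recruits AKT, which keeps FOXO1 out of the nucleus and favours glycogen storage and the SREBP-1c programme of fatty acid synthesis. During a fast, insulin falls, FOXO1 targets and gluconeogenic genes are switched on, and the liver takes up and oxidizes fatty acids released from adipose tissue, while a high-fat diet adds lipid droplet storage and insulin resistance. The question of the comparison is which genes of these programmes differ with the loss of hepatocyte p110α in mice fasted after a high-fat diet.

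The arrays were of even quality. Between 53% and 58.7% of spots were well above background, no spot was saturated, and the weights given by the fit lay between 0.72 and 1.51. Arrays of the same genotype correlated at 0.9924 to 0.9969 over 20599 genes and arrays of different genotypes at 0.9829 to 0.9912. Differences are LKO minus LWT on the log2 scale. Of 14 hepatocyte markers, 1 was called higher and none lower, with a median of 0.06. Pik3ca, which encodes p110α, differed by 0.25 ± 0.08 on the log2 scale (adjusted p = 0.0172), with signals of 13.31 to 13.71 (median 13.49) in LKO and 12.95 to 13.45 (median 13.32) in LWT livers. Its probe lies at chr3:32364747-32364806 (mm9, as the array files give it), Cre removes only part of the gene, and whether this probe lies in that part is not given in the sources used here, so it was no check of the deletion.

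All signals below are log2 of the normalized spot intensity, all differences are LKO minus LWT on that scale with the SE of the limma fit (n = 6 mice per genotype), and fold is used where a difference was turned back to a linear ratio. A gene was called when the adjusted p was at most 0.05 and the fold over 1.5. Of 20599 genes, 478 were called higher in LKO livers (2.32%) and 867 lower (4.21%). Without the fold threshold, 3953 (19.2%) were higher and 3645 (17.7%) lower, so most differences were smaller than 1.5-fold, and the share of calls that were higher was 35.5% with the fold threshold and 52.0% without it. The median over all genes was 0.03. For 1327 genes every LKO array was above every LWT array (6.44%) and for 1550 every LKO array was below (7.52%). Within washing batch 1, with 3 mice per genotype, 1490 genes were called, of which 1074 were among the 1345, and within washing batch 2, 1311 genes were called, of which 1002 were. The liver was sampled whole, so fewer cells of a type and less RNA per cell cannot be told apart.

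**Figure D1:**
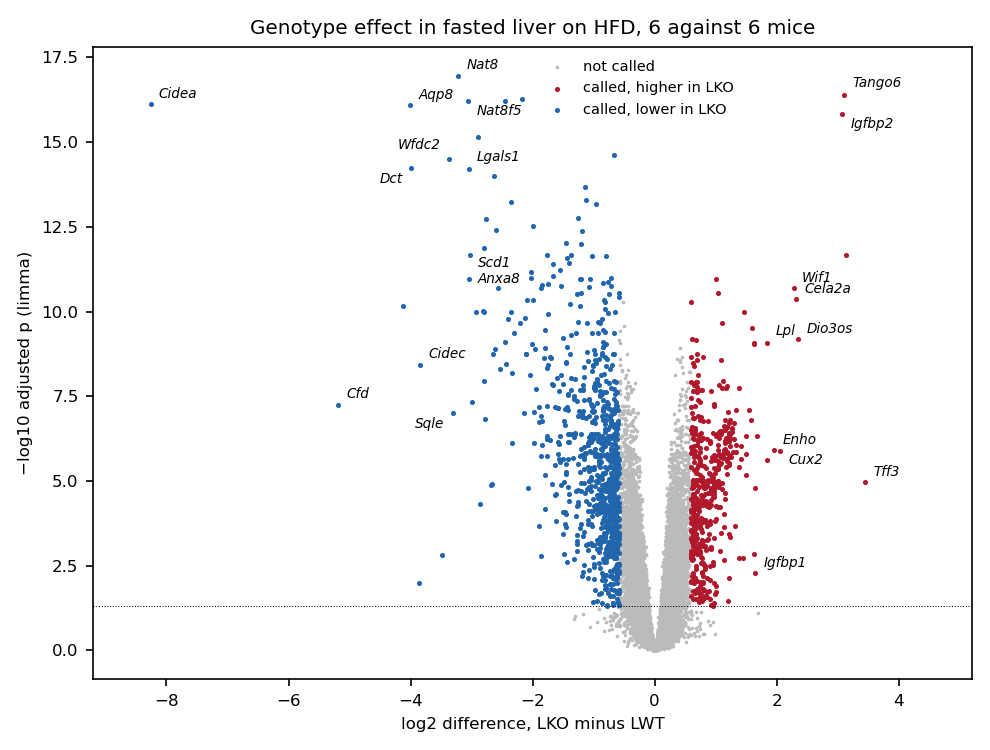
The log2 difference between LKO and LWT livers of fasted mice on HFD (horizontal axis) against −log10 of the adjusted p from limma (vertical axis) for 20599 genes, with the dotted line at an adjusted p of 0.05. Red points are the 478 genes called higher in LKO livers, blue points the 867 called lower, and Cidea stands apart at -8.26.

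The largest fall was that of Cidea, which encodes a protein that enlarges lipid droplets by fusing them. Its signal was 5.61 to 6.99 (median 6.22) in LKO livers and 13.54 to 15.22 (median 14.42) in LWT livers. The genotypes were far apart, LKO was lower on 6 of 6 slides, and the signal was well above background on 5 of 6 LKO arrays. The difference was -8.26 ± 0.50 (adjusted p = 7.72e-17). Because the LKO signals lay near background the size is uncertain, and the alternatives gave -7.78 to -9.12. Cfd, the adipose-enriched complement factor D, came next at -5.19 ± 0.66, with signals of 6.33 to 10.87 (median 9.18) in LKO and 12.45 to 15.18 (median 13.71) in LWT livers. Aqp8, a water channel, fell by 4.01 ± 0.24, Wfdc2, a secreted protease inhibitor, by 3.37 ± 0.23, Lgals1, which encodes galectin-1, by 3.05 ± 0.21 and Anxa8, an annexin, by 3.04 ± 0.27. Nat8 and Nat8f5, acetyltransferase genes of near-identical sequence whose probes may share signal, fell by 3.22 ± 0.18 and 3.06 ± 0.18. For each of these 8 genes, Cidea and Cfd included, no LKO array reached the lowest LWT array. This was a condition for naming any gene among the largest falls or rises. The probe of Dct fell by 3.99 ± 0.28, but the other probe of the gene gave -0.08, so the gene's change rests on 1 probe.

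Among the largest rises, Tff3, a secreted trefoil peptide, had signals of 9.25 to 11.94 (median 10.27) in LKO and 6.66 to 7.77 (median 6.92) in LWT livers. The genotypes did not overlap, although the LKO arrays spread over a wide range. It rose by 3.45 ± 0.59 (adjusted p = 1.11e-05), 10.9-fold. Igfbp2, which binds insulin-like growth factors in plasma, rose by 3.07 ± 0.19, Enho, which encodes the secreted peptide adropin, by 1.96 ± 0.29, and Cela2a, a secreted elastase, by 2.31 ± 0.22. Dio3os, a non-coding RNA opposite the deiodinase 3 gene, rose by 2.35 ± 0.25. Wif1, a secreted inhibitor of Wnt ligands, was well above background on 6 of 6 LKO arrays and on 0 of 6 LWT arrays. With the processing used here it was at least 4.12-fold higher (measured means on the log2 scale differed by 2.28 ± 0.21). The alternatives gave 1.6 to 4.74 on that scale. Cux2, a transcription factor with female-biased expression in mouse liver, rose by 2.06 ± 0.31. It was above background on 1 of 6 LWT arrays, so the size is uncertain, and the alternatives gave 1.52 to 4.15. Acmsd, an enzyme of tryptophan catabolism, rose by 1.67 ± 0.24 and Pde6c, a phosphodiesterase subunit, by 1.84 ± 0.29. Lpl, the lipoprotein lipase, rose by 1.84 ± 0.20 on its brightest probe, while its other probes gave between 0.17 and 1.55. Tango6 rose by 3.10 ± 0.18 on 1 probe, and its other probe gave 0.03. These named genes leave out unnamed clones and predicted genes, which made up 276 of the 1345 called.

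Of 18 measured genes for lipid droplet proteins and triglyceride lipases, 7 were called lower, 0 higher and 11 neither, and 5 were above 0, with a median of -0.49 against 0.03 over all genes, and 8 had every LKO array below every LWT array. Over all genes, 2.32% were called higher and 4.21% lower. Every LKO array was above every LWT array for 6.44% and below for 7.52%. The counts of each list here and below are to be read beside these shares. Cidec, a partner of Cidea in droplet fusion, had signals of 8.94 to 11.95 (median 10.18) in LKO and 13.51 to 14.65 (median 13.91) in LWT livers. The genotypes did not overlap. The difference was -3.85 ± 0.43 (adjusted p = 3.69e-09), 14.5-fold. Fitm1, which helps package triglyceride into droplets, differed by -1.99 ± 0.19, and the perilipin Plin4, a droplet coat protein, by -1.68 ± 0.29. Plin2, the main perilipin of fatty liver, differed by -0.79 ± 0.19, and its LKO arrays, at 13.87 to 15.57 (median 14.38), reached into the LWT arrays, at 15.05 to 15.61 (median 15.19), and it was not called without LKO replicate 2. Mgll, which splits monoglycerides, fell by 0.76 ± 0.11. Plin5, a perilipin of oxidizing tissues, differed by 0.03 ± 0.17 and Pnpla2, which encodes the triglyceride lipase ATGL, by 0.33 ± 0.13, and neither was called. Of 22 genes of glycerolipid synthesis, 3 were called lower, with Mogat1, which makes diglyceride from monoglyceride, at -2.81 ± 0.27 and Gpd1, which makes glycerol 3-phosphate, at -1.37 ± 0.11.

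Pparg, the nuclear receptor that drives lipid storage genes and is induced in fatty liver, had signals of 9.19 to 10.20 (median 9.94) in LKO and 10.90 to 11.63 (median 11.27) in LWT livers. No LKO array reached an LWT array, and LKO was lower on 6 of 6 slides. The difference was -1.47 ± 0.19 (adjusted p = 7.5e-08). Cd36, a fatty acid translocase, differed by -1.49 ± 0.25. Among the 17 genes of fatty acid uptake and binding, 2 were called lower and 4 higher, Lpl among the latter, but this count of 6 was 3 without LKO replicate 2. Apoa4, an apolipoprotein whose liver level rises with fat content, differed by -2.66 ± 0.46, the only 1 of 20 apolipoprotein and lipoprotein assembly genes called lower. Of the 3 called higher, Apom, a carrier of sphingosine 1-phosphate, differed by 1.01 ± 0.09 and Scarb1, the HDL receptor, by 0.79 ± 0.09.

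**Figure D2:**
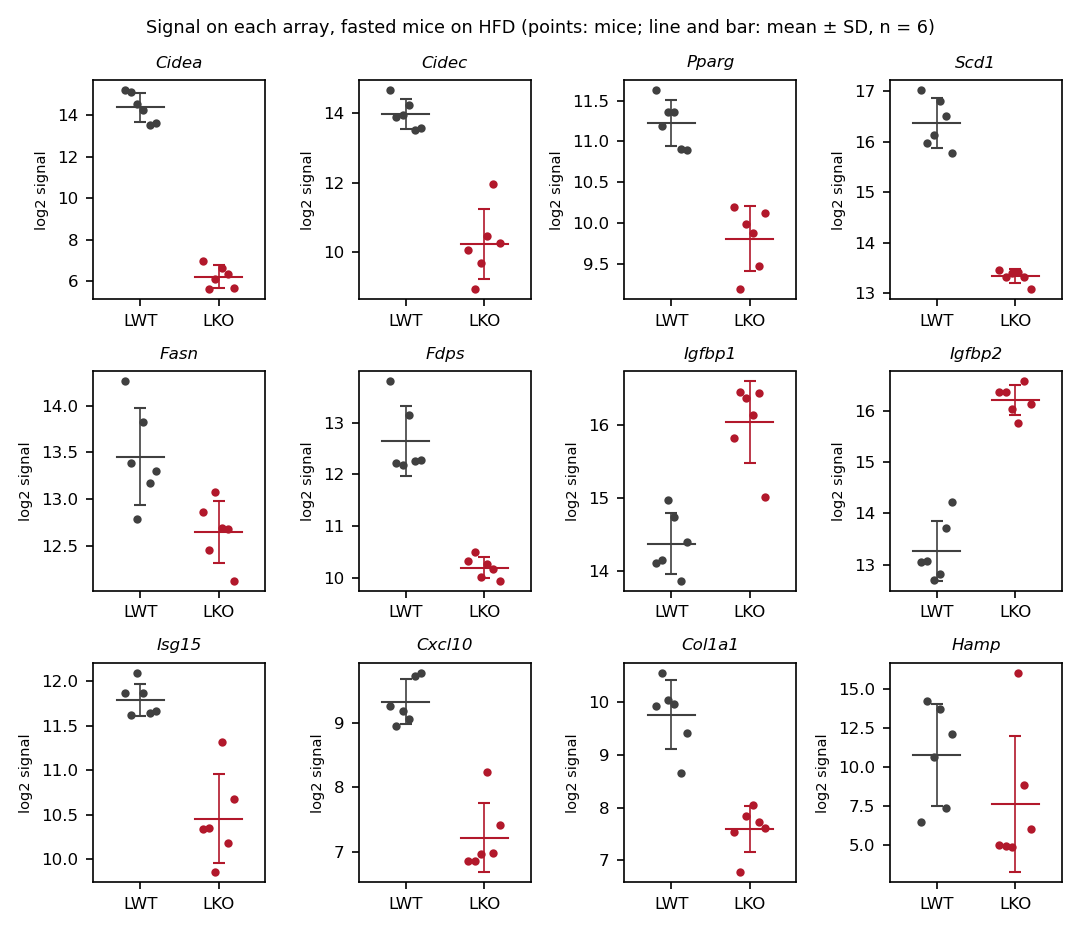
Log2 signal of 12 genes on each array, with LWT mice in grey and LKO mice in red, points for single mice, and lines and bars for the mean and SD (n = 6 mice). Cidea, Cidec, Pparg, Scd1, Fdps, Igfbp1, Igfbp2, Isg15, Cxcl10 and Col1a1 do not overlap between genotypes, while Fasn and Hamp do.

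Of 22 genes of fatty acid synthesis, 20 were above background on at least 5 of 6 fasted arrays of a genotype. Among the 22, 9 were called lower and 0 higher, with a median of -0.38, or -0.47 over the 20. Scd1, the stearoyl-CoA desaturase that makes oleate, had signals of 13.07 to 13.46 (median 13.36) in LKO and 15.77 to 17.03 (median 16.33) in LWT livers. There was no overlap, and the difference was -3.03 ± 0.25 (adjusted p = 2.08e-12), 8.17-fold. Thrsp, a regulator of lipogenic flux known as Spot 14, differed by -2.79 ± 0.33, Me1, the malic enzyme that supplies NADPH, by -1.89 ± 0.24 and Elovl5, a fatty acid elongase, by -1.31 ± 0.18, with its other probes between -0.73 and -0.08. Fasn, the fatty acid synthase, had signals of 12.12 to 13.07 (median 12.68) in LKO and 12.78 to 14.26 (median 13.34) in LWT livers. These ranges overlapped, and the difference was -0.79 ± 0.20 (adjusted p = 0.00205), 1.73-fold. Within washing batch 2 the Fasn difference was not called (-0.56). Acacb, the acetyl-CoA carboxylase that limits fatty acid entry into mitochondria, differed by -1.86 ± 0.29 on its brightest probe but by 0.11 and 0.25 on the others, so that its fall rests on 1 probe.

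Other enzymes of the same pathway were not called. Acly, which makes cytosolic acetyl-CoA, differed by -0.28 ± 0.16 (adjusted p = 0.199), Acaca, the cytosolic acetyl-CoA carboxylase, by -0.24 ± 0.13 (0.16) and Elovl6, a palmitate elongase, by -0.39 ± 0.20 (0.118). Srebf1, which encodes SREBP-1, differed by -0.37 ± 0.21 (0.18).

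Cholesterol synthesis was the lipid pathway with the largest share of its members lower. Of 26 measured genes of cholesterol synthesis and other SREBP-2 targets, 15 were called lower and 0 higher, with a median of -0.76, and 13 had every LKO array below every LWT array. Sqle, which commits squalene to sterols, had signals of 5.16 to 5.76 (median 5.40) in LKO and 7.51 to 10.27 (median 8.59) in LWT livers. It was above background on 1 of 6 LKO arrays, and the genotypes did not overlap, with a difference of -3.31 ± 0.44 (adjusted p = 1.01e-07). Because the LKO level was mostly at background the size is uncertain, and the alternatives gave -2.75 to -5.25. Fdps, the farnesyl diphosphate synthase, had signals of 9.95 to 10.50 (median 10.22) in LKO and 12.18 to 13.79 (median 12.27) in LWT livers. These did not overlap either, and the difference was -2.41 ± 0.24 (adjusted p = 1.63e-10), 5.3-fold. The sterol ring enzymes Msmo1, Nsdhl, Cyp51 and Dhcr7 differed by -1.75 ± 0.20, -1.72 ± 0.19, -1.59 ± 0.20 and -1.39 ± 0.20. Earlier in the pathway, Hmgcs1, which makes HMG-CoA, fell by 1.21 ± 0.18 (another probe gave -0.21) and Mvk, the mevalonate kinase, by 1.1 ± 0.16. Srebf2, which encodes SREBP-2 itself, differed by -0.24 ± 0.09 and Insig1, the sterol-sensing anchor of SREBP, by -0.22 ± 0.16, and neither was called.

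Among sterol exporters, Abcg8 rose by 1.05 ± 0.15 and its partner Abcg5, with which it pumps sterols into bile, by 0.70 ± 0.16, although Abcg5 was not called without LKO replicate 1 or in washing batch 1. They were the 2 genes called among 12 of the LXR and sterol export list, and Abca1, which loads cholesterol onto HDL, differed by 0.47 ± 0.08 without reaching 1.5-fold.

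The promoter of Hmgcs1 is shown because it was the 1 of 18 promoters of the cholesterol list that held the letters TCACNCCAC, the core of the sterol regulatory element, on either strand. The 300 bases span the start site at chr13:119690101-119690400 (GRCm38.p6, plus strand, RefSeq), with the match in capitals, 137 bases before the start site. The same letters stood in 1.44% of 12228 promoters of tested genes and in 1.56% of the 576 promoters of genes called lower.
Hmgcs1: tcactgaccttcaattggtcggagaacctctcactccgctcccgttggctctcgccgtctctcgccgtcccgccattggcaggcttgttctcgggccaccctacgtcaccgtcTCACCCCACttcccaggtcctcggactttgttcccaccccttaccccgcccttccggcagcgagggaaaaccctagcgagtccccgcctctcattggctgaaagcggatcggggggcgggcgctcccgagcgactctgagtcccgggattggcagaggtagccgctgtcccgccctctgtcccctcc

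Genes of insulin receptor signalling and FOXO targets were counted together, so the list is no measure of FOXO1 targets alone. Of 33 genes of insulin receptor signalling and FOXO targets, 3 were called higher and 0 lower, with a median of 0.26, and 14 were higher by adjusted p alone. Igfbp1, a FOXO1 target that binds insulin-like growth factors, had signals of 15.02 to 16.46 (median 16.26) in LKO and 13.87 to 14.98 (median 14.28) in LWT livers. The genotypes did not overlap, and LKO was higher on 6 of 6 slides. The difference was 1.65 ± 0.47 (adjusted p = 0.00539), 3.13-fold, and 2.13 and 1.26 in washing batches 1 and 2. Irs2, the insulin receptor substrate that FOXO1 induces in fasting, differed by 0.91 ± 0.28 (adjusted p = 0.00839), and its arrays overlapped, at 10.51 to 11.93 (median 11.53) in LKO and 9.78 to 10.86 (median 10.45) in LWT livers. Txnip, which restrains glucose uptake, differed by 0.80 ± 0.18. The call of Irs2 was lost within washing batches 1 and 2, at 1.12 and 0.76, and that of Txnip within batch 2, at 0.67. Foxo1 itself, at 0.53 ± 0.14, and Irs1, at 0.43 ± 0.11, passed the adjusted p but not the fold threshold. Insr, the insulin receptor, differed by 0.15 ± 0.08 and was not called. Of 16 PI3K subunit genes, 1 was called, the regulatory subunit Pik3r3 at -0.79 ± 0.11, while Pik3r1 differed by -0.24 ± 0.13 and Pik3cb, which encodes p110β, by -0.15 ± 0.09.

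The promoters of Igfbp1 and Irs2 are shown because they were the 2 of the 3 called genes of this list that held CAAAACAA, the insulin response sequence, on either strand (capitals, TTGTTTTG where it lies on the other strand). Both windows are GRCm38.p6 from RefSeq, Igfbp1 at chr11:7197537-7197836 on the plus strand with the match 108 bases before the start site, and Irs2 at chr8:11008880-11009179 on the minus strand with the match 38 bases before it. The letters stood in 5 of 29 promoters of the list and in 2.26% of all 12228.
Igfbp1: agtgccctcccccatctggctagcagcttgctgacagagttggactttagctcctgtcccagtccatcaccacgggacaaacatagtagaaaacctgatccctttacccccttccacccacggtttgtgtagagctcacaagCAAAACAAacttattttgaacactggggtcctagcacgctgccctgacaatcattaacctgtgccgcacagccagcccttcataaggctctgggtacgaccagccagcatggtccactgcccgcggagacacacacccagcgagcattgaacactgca
Irs2: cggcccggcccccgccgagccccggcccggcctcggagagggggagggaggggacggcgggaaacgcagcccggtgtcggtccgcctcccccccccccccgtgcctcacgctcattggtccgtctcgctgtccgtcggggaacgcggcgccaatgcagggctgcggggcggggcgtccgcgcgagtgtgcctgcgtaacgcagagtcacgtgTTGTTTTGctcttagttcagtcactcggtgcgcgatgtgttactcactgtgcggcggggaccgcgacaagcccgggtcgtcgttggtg

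Secreted liver proteins changed in both directions. Of 24 hepatokine genes, 6 were called higher and 2 lower. Igfbp2 had signals of 15.77 to 16.58 (median 16.26) in LKO and 12.70 to 14.22 (median 13.07) in LWT livers, with no overlap. Inhbb, which encodes the subunit of activin B, had signals of 9.77 to 10.70 (median 9.90) in LKO and 8.48 to 9.17 (median 8.91) in LWT livers. Every LKO array was above every LWT array, and the difference was 1.34 ± 0.20 (adjusted p = 8.73e-07). Fetub, which encodes fetuin-B, differed by 0.62 ± 0.09, close to the fold threshold, and was not called without LKO replicate 6. Lect2, a chemotactic hepatokine, fell by 0.83 ± 0.11. Fgf21, the fasting hormone, differed by 0.27 ± 0.25 (adjusted p = 0.417) and was not called.

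Gluconeogenesis is a main fasting programme of the liver. Of 19 measured genes, 1 was called higher and 1 lower, and 4 were higher and 7 lower by adjusted p alone, with a median of 0.05. Pck1, which makes phosphoenolpyruvate, differed by 0.32 ± 0.22 (adjusted p = 0.268), G6pc, which releases free glucose, by 0.13 ± 0.22 (0.691) and the coactivator Ppargc1a by 0.29 ± 0.15 (0.14). In the opposite direction of flux, Pklr, the liver pyruvate kinase, had signals of 7.06 to 8.11 (median 7.43) in LKO and 8.11 to 9.30 (median 9.27) in LWT livers. The highest LKO array equalled the lowest LWT array to 2 decimals, and the difference was -1.56 ± 0.23 (adjusted p = 8.05e-07). It was 1 of 2 called lower among 24 genes of glucose uptake and glycolysis. Of 8 genes of the pentose phosphate pathway, which supplies NADPH, 3 were called lower. They were Taldo1 at -0.96 ± 0.07, Pgd at -0.86 ± 0.11 and Tkt at -1.01 ± 0.11, the last with another probe at -0.02. G6pdx, its first enzyme, differed by -0.27 ± 0.11.

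Of 17 glycogen genes, 3 were called higher and 0 lower, 4 were higher and 6 lower by adjusted p alone, and the median was -0.02. Gys2, the liver glycogen synthase, rose by 0.74 ± 0.11, and Ppp1r3b, which targets a phosphatase to glycogen, by 0.71 ± 0.12. Ppp1r3g, another such targeting subunit, rose by 1.01 ± 0.32 but was not called without LKO replicate 2. The glycogen count was 1 in washing batch 2 alone.

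Fatty acid oxidation and ketogenesis are the other main programme of fasting. Of 41 genes, 2 were called higher and 4 lower, against 2.32% and 4.21% of all genes, 19 were lower by adjusted p alone, and the median was -0.18. Pex11a, a PPARα target of peroxisome division, differed by -0.80 ± 0.14. The 2 called higher were Ehhadh at 0.68 ± 0.18 and Cyp4a10 at 0.68 ± 0.25. Cpt1a, the entry step to mitochondria, differed by -0.18 ± 0.10 and Ppara, the fasting receptor itself, by 0.12 ± 0.07, and neither was called. Pdk4, which blocks pyruvate oxidation, differed by 0.26 ± 0.41 with LKO arrays from 8.57 to 11.88 (median 10.09) and LWT arrays from 9.69 to 10.03 (median 9.78).

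Interferon-stimulated genes had the largest share called lower of the lists plotted. Of 28 measured, 20 were called lower and 0 higher, the median was -0.87, and all 28 differences were below 0. Isg15, a ubiquitin-like modifier, had signals of 9.85 to 11.31 (median 10.34) in LKO and 11.62 to 12.09 (median 11.76) in LWT livers. The genotypes did not overlap, and the difference was -1.37 ± 0.17 (adjusted p = 2.07e-08), 2.59-fold. Cxcl10, a chemokine that draws T cells, had signals of 6.85 to 8.24 (median 6.98) in LKO and 8.96 to 9.78 (median 9.23) in LWT livers. These did not overlap, and the difference was -2.05 ± 0.24 (adjusted p = 7.36e-09). The RNA-binding Ifit1 and Ifit3 fell by 1.25 ± 0.20 and 1.34 ± 0.19, the deISGylase Usp18 by 1.33 ± 0.19, and the immunoproteasome subunit Psmb9 by 1.21 ± 0.17. Among the transcription factors, Irf7 fell by 1.1 ± 0.16, while Stat2 differed by -0.13 ± 0.10 and was not called. Gbp2, a guanylate-binding protein, fell by 1.29 ± 0.23 with overlapping arrays.

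LKO replicate 4 stood nearest the LWT arrays for these genes. Its Isg15 and Cxcl10 signals, 11.31 and 8.24, were the highest of the LKO arrays, and its Gbp2 signal was 9.09 where the next LKO array stood at 8.09. Without it, 22 of the 28 were called and the median was -1.0. In 12 of the 28 genes every LKO array was below every LWT array, with LKO replicate 4 included. Within washing batches 1 and 2, 15 and 22 were called, with Isg15 at -1.05 and -1.71 and Cxcl10 at -1.83 and -2.21.

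**Figure D3:**
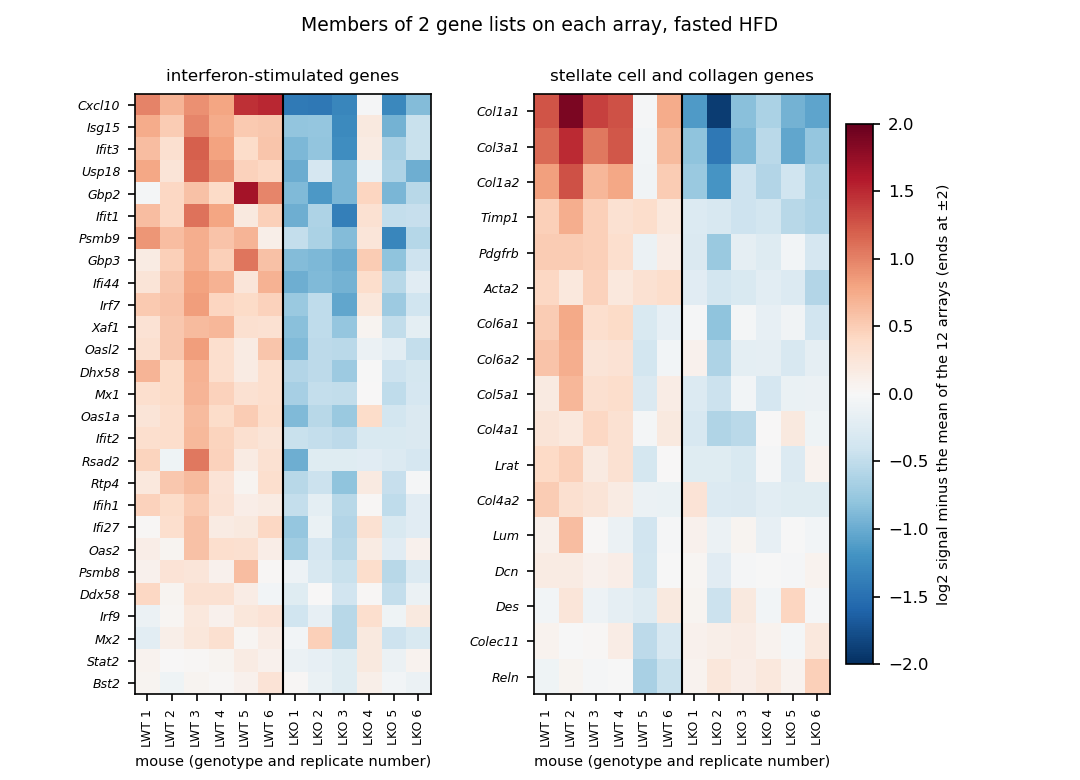
Log2 signal minus the mean of the 12 arrays for 27 of the 28 interferon-stimulated genes (left) and 17 stellate cell and collagen genes (right), 1 column per mouse, blue below and red above the mean. LKO replicate 4 is close to the mean or above it for most interferon-stimulated genes, and LWT replicate 5 is below it for most collagen genes.

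The promoters of Isg15, Ifit1 and Cxcl10 are shown because their genes fell together and each holds the core of the interferon-stimulated response element, searched as TTTC, 2 bases of any kind and TTTC, or GAAA, 2 bases and GAAA on the other strand. The sequences run in the direction of each gene, and capitals mark the matches, 3 that overlap in Isg15, 2 in Ifit1 and 1 in Cxcl10. The windows are GRCm38.p6 from RefSeq, Isg15 at chr4:156200769-156201068 on the minus strand, Ifit1 at chr19:34640639-34640938 on the plus strand and Cxcl10 at chr5:92348840-92349139 on the minus strand. The letters stood in 12 of 20 promoters of the list, in 9 of 15 of called and 3 of 5 of uncalled members, against 3.84% of all 12228 promoters and 6.08% of the 576 promoters of genes called lower.
Isg15: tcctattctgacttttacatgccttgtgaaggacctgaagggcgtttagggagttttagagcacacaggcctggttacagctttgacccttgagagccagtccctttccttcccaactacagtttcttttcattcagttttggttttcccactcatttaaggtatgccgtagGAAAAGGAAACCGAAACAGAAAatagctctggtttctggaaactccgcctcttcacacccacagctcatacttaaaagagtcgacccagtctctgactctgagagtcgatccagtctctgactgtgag
Ifit1: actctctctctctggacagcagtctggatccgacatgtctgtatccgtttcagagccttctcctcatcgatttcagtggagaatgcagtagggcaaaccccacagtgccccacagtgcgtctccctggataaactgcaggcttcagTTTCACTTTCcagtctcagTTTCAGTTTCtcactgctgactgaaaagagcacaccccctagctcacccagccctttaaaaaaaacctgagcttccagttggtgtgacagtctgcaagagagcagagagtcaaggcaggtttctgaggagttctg
Cxcl10: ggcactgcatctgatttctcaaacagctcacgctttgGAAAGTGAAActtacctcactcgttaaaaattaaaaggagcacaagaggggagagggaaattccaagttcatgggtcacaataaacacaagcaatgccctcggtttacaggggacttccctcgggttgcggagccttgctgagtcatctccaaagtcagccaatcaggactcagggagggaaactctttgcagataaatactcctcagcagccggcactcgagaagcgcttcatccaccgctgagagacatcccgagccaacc

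Of 20 Kupffer cell and macrophage markers, 4 were called lower and 1 higher, and the mean signal over the list was 9.88 to 10.40 on LKO arrays and 10.02 to 10.98 on LWT arrays. Itgax, which encodes CD11c, had signals of 5.80 to 7.40 (median 6.31) in LKO and 7.73 to 8.38 (median 7.97) in LWT livers, with no overlap and a difference of -1.55 ± 0.22 (adjusted p = 4.58e-07). Trem2, a lipid receptor, fell by 1.5 ± 0.29 and Ccr2, the receptor that recruits monocytes, by 0.97 ± 0.12. Gpnmb, a glycoprotein of lipid-laden macrophages, was above background on 0 of 6 LKO and 6 of 6 LWT arrays. With the processing used here it was at least 2.54-fold lower in LKO livers. The alternatives gave log2 differences of -0.98 to -3.51, with -0.98 in washing batch 2. Cd9, another marker of lipid-associated macrophages, differed by -0.33 and was not called. Adgre1, a defining surface receptor of mouse macrophages, differed by 0.14 ± 0.21 and Clec4f by 0.26 ± 0.13, both uncalled, and Cd163, a haemoglobin scavenger receptor, rose by 0.75 ± 0.18, with another probe at 0.32.

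Of 17 collagen and stellate cell genes, 7 were called lower, 0 higher and 10 neither, and 3 were above 0, with a median of -0.53 and mean signals of 9.0 to 9.34 on LKO arrays and 9.36 to 10.15 on LWT arrays. Col1a1, a chain of the main scar collagen, had signals of 6.77 to 8.04 (median 7.68) in LKO and 8.65 to 10.55 (median 9.95) in LWT livers. No LKO array reached the lowest LWT array, which was LWT replicate 5. The difference was -2.33 ± 0.27 (adjusted p = 6.37e-09), 5.02-fold. Col1a2 differed by -1.42 ± 0.20, Col3a1 by -1.96 ± 0.21 on its brightest probe with others between -0.51 and -0.32, and Timp1, an inhibitor of matrix proteases, by -0.86 ± 0.09. Acta2, the actin of activated stellate cells, differed by -0.63 ± 0.09, with another probe at 0.40. Lrat, which stores retinol in quiescent stellate cells, differed by -0.40 ± 0.17 (adjusted p = 0.0607) and was not called. Without LWT replicate 5, 9 of the 17 were called, and with the median over the probes of each gene, 4 were. The part of cell numbers in these differences was not tested.

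Of 9 neutrophil markers, 4 were called lower, among them S100a8 and S100a9, which form calprotectin, at -1.28 ± 0.30 and -1.51 ± 0.33. The mean over the list was 7.76 to 8.09 on LKO arrays and 8.14 to 9.04 on LWT arrays, and the defining marker Ly6g, at 0.18 ± 0.09, was not called. Spp1, which encodes osteopontin and is made by bile duct cells and by macrophages, had signals of 8.45 to 9.14 (median 8.74) in LKO and 10.95 to 11.73 (median 11.33) in LWT livers. LKO arrays were all below LWT arrays, and the difference was -2.63 ± 0.19 (adjusted p = 1.02e-14). It was 1 of 2 bile duct markers of 9 called lower. The other, Krt19, a duct keratin, differed by -0.73 ± 0.18 and was not called without LWT replicate 2. Krt23, a keratin of the same list, rose by 1.65 ± 0.29. Of 14 sinusoidal endothelial markers, 3 were called higher, 9 were higher and 0 lower by adjusted p alone, and the median was 0.32. Of 12 lymphocyte markers 1 was called higher and 1 lower, and of 8 erythroid markers, with a median of 0.26, 1 was called lower.

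Cidea and Cfd, 2 of the largest falls, are also adipocyte genes. The other 5 measured adipocyte markers were not called. Plin1, the adipocyte perilipin, differed by 0.13 ± 0.11 and was above background on 5 of 6 LKO and 2 of 6 LWT arrays. Lep, which encodes leptin, differed by 0.00 ± 0.13, and Fabp4, the adipocyte fatty acid carrier, by 0.16 ± 0.30. Cela2a was likewise the 1 called of 4 measured pancreatic acinar markers, with Ctrb1, a chymotrypsinogen, at 0.00 ± 0.13 and the colipase Clps at -0.14 ± 0.10.

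Hepcidin varied widely between mice of either genotype. Hamp, the hormone that blocks iron export, had signals of 4.89 to 16.06 (median 5.54) in LKO and 6.45 to 14.29 (median 11.41) in LWT livers. The highest value of all 12 arrays was that of LKO replicate 4, and the next LKO array stood at 8.88. It was above background on 3 of 6 LKO arrays, so the size is uncertain. The difference was -3.86 ± 1.20 (adjusted p = 0.0101) and it was not called without LKO replicate 1, 2 or 3 or LWT replicate 2, where the adjusted p was 0.0501 to 0.0647. The call was also lost with no array weights (0.0627) and with the fit limited to the 12 arrays (0.135), and without LKO replicate 4 the difference was -5.61. Hamp2, a near-identical copy whose probe may share its signal, differed by -3.48 ± 0.87. In washing batch 1 alone the values were -1.25 for Hamp and -0.21 for Hamp2. Of 20 iron genes, 3 were called lower, both hepcidin genes among them, and the 17 others were not called.

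Of 25 acute phase genes, 4 were called lower, with Lcn2, which binds bacterial siderophores, at -1.32 ± 0.34. That count was 1 without LWT replicate 4 and 2 without LKO replicate 3. Of 28 cell cycle genes, 7 were called lower, among them the proliferation marker Mki67 at -0.71 ± 0.16 and the topoisomerase Top2a at -0.68 ± 0.16, and 3 without LWT replicate 1. For the unfolded protein response, 4 of 27 genes were called higher and the median was 0.35. Dnajb9, a chaperone of the endoplasmic reticulum, rose by 0.78 ± 0.22. Sdf2l1, Creld2 and Manf, of the same compartment, had values of 0.97 ± 0.37, 0.93 ± 0.37 and 0.85 ± 0.30, overlapping arrays and adjusted p of 0.0389, 0.0459 and 0.0258. Of 27 alternatives, 18 lost the call of Creld2, 14 that of Sdf2l1 and 9 that of Manf, and the count moved between 0 and 7. Hspa5, the main chaperone BiP, differed by 0.49 ± 0.23 and was not called, although 5 alternatives called it. Within washing batches 1 and 2, the counts of called members were 1 and 3 for the acute phase genes, 5 and 2 for the cell cycle, 2 and 0 for the unfolded protein response, 1 and 3 for iron, 2 and 4 for the neutrophil markers and 5 and 1 for the insulin and FOXO list.

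Sex-biased genes that growth hormone controls changed in both directions. Of 22 male-biased genes, 3 were called higher and 5 lower, and of 19 female-biased genes, 4 higher and 3 lower. Elovl3, a male-biased elongase, had signals of 10.49 to 13.28 (median 11.64) in LKO and 12.20 to 14.21 (median 13.44) in LWT livers. The genotypes overlapped, and the difference was -1.89 ± 0.40 (adjusted p = 0.000212). Cyp4a12a, a male-biased arachidonate hydroxylase with a near-identical neighbour, differed by -1.48 ± 0.37, while Socs2, an inhibitor of growth hormone signalling, rose by 1.63 ± 0.40. On the female-biased side Cux2 and the oxysterol hydroxylase Cyp39a1 rose, the latter by 1.49 ± 0.25, and Ntrk2, a neurotrophin receptor, fell by 1.98 ± 0.29. Of 28 nuclear receptor genes, 1 was called higher and 3 lower, and the oestrogen receptor Esr1 rose by 0.89 ± 0.17. All mice were male.

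Among metabolic enzymes, 7 of 51 P450 genes of families 1 to 3 were called higher and 2 lower. Cyp1a2, a pericentral enzyme that oxidizes caffeine, rose by 1.05 ± 0.16 and Cyp2c23, an arachidonate epoxygenase, by 1.18 ± 0.14, both with no overlap between genotypes. Of 41 genes of amino acid catabolism and the urea cycle, 4 were called higher and 0 lower. Cps1, the first step of the urea cycle, rose by 1.1 ± 0.13, and Asl, the argininosuccinate lyase, by 0.75 ± 0.12, with another probe at 0.28. No gene of 3 further lists was called by limma, which were 19 core clock genes, 74 ribosomal protein genes and 77 oxidative phosphorylation genes. By adjusted p alone, 5 of the clock genes were higher and 0 lower, 50 of the ribosomal protein genes were higher and 0 lower, and 1 of the oxidative phosphorylation genes was higher and 27 lower. These were differences below 1.5-fold, with medians of 0.17, 0.16 and -0.09.

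**Figure D4:**
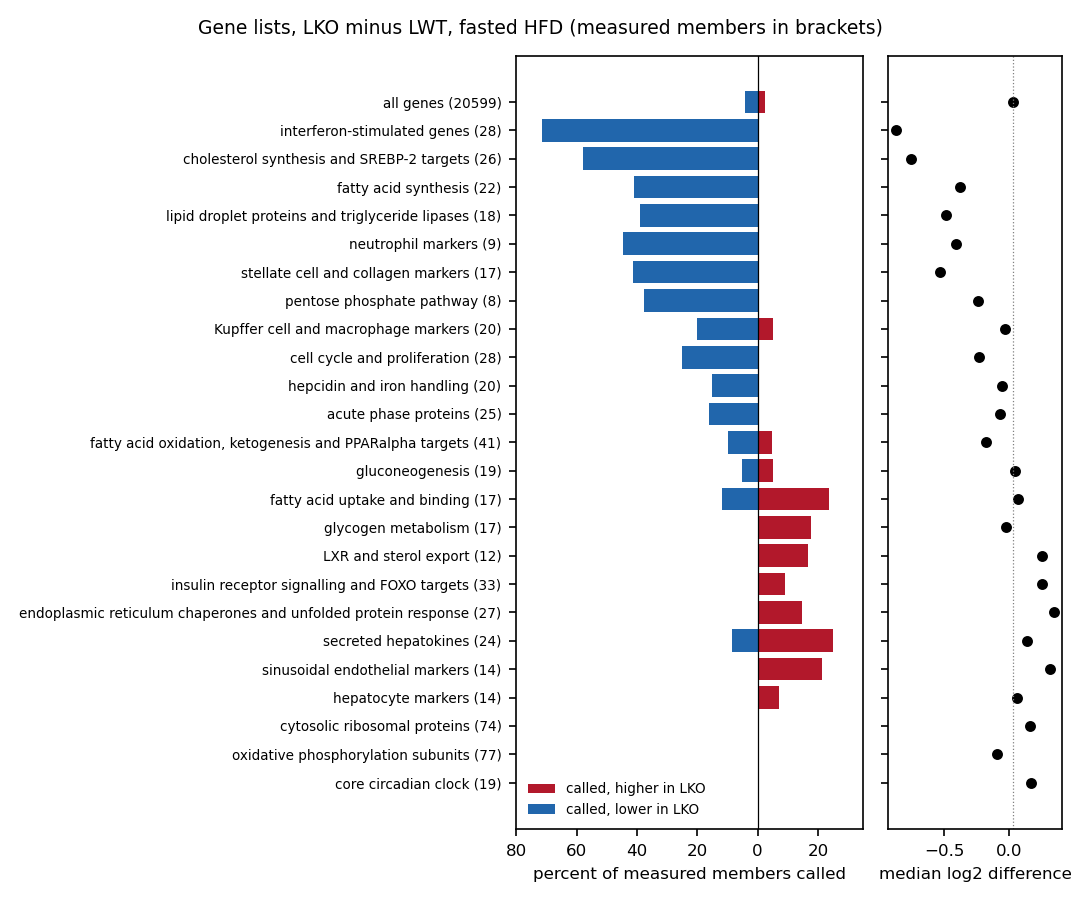
Share of the measured members of 24 gene lists, and of all genes, called higher (red, to the right) or lower (blue, to the left) in LKO livers, and the median log2 difference of each list (points, with the dotted line at 0.03, the median of all genes). The 28 interferon-stimulated genes and the 26 cholesterol synthesis genes have the largest shares called lower.

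The effect of genotype in fasted mice on HFD was set against that in fed mice on HFD, which are other mice on the same slides. The difference of the genotype effects, fasted minus fed, was called for 287 genes (1.39%), 151 positive and 136 negative. Within washing batches, with 3 mice per group, 40 and 73 genes were called. Of the 20 fatty acid synthesis genes above background in fasted mice, 6 were called positive and 0 negative, and their median genotype effect was -0.47 in fasted and -1.49 in fed mice. Fasn differed between genotypes by -0.79 ± 0.20 in fasted and -2.63 ± 0.20 in fed mice, a difference of 1.84 ± 0.28 (adjusted p = 6.18e-05). Acly, at -0.28 ± 0.16 in fasted and -2.20 ± 0.16 in fed mice, gave a difference of 1.93 ± 0.23 (8.39e-07), Acaca one of 1.30 ± 0.19 (1.91e-05) and Elovl6 one of 1.34 ± 0.27 (0.0026). Acacb gave 1.36 ± 0.40 (0.0444) on its brightest probe, but 17 of 27 alternatives lost that call, and with its probes summarised by their median the difference was 0.30. Within washing batches 1 and 2 the difference was 2.03 and 1.68 for Fasn and 1.94 and 1.86 for Acly. The call was lost for Fasn and Acaca in batch 2 and for Elovl6 in either batch, while Acly kept it. Pnpla3, a lipid droplet hydrolase that SREBP-1c induces, and its relative Pnpla5 differed between genotypes by -3.46 ± 0.32 and -3.69 ± 0.33 in fed mice. In fasted mice Pnpla3 was above background on 0 of 6 LKO and 1 of 6 LWT arrays and Pnpla5 on 0 of 6 and 2 of 6, so no genotype effect could be measured there and the size of the difference from fed mice is not known.

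Slc2a4 and Rgs16 rose in fasted and fell in fed LKO livers. Slc2a4, the glucose transporter GLUT4, had signals of 6.23 to 7.78 (median 7.02) in fasted LKO and 6.03 to 6.18 (median 6.16) in fasted LWT livers. These did not overlap, and the genotype effect was 0.91 ± 0.22 in fasted and -1.98 ± 0.21 in fed mice, a difference of 2.89 ± 0.30 (adjusted p = 3.92e-08). Slc2a4 was dim in fasted mice, and the alternatives gave 0.72 to 1.38 for its fasted effect. That effect was not called within washing batch 1, at 0.78. Rgs16, a regulator of G protein signalling, went from -2.27 ± 0.44 in fed to 1.20 ± 0.45 in fasted mice, a difference of 3.47 ± 0.63 (0.000583), though its fasted effect was not called without any 1 of 6 arrays (LKO replicate 1, 2 or 3, LWT replicate 2, 5 or 6). The fasted effect of Rgs16 was also not called within washing batch 2, at 0.99. Ppp1r3g, the glycogen targeting subunit, gave a difference of 2.45 ± 0.45 (0.000706). Inhbb, raised in fasted LKO livers, differed by 0.01 ± 0.19 in fed mice, a difference of 1.33 ± 0.27 (0.00267). Fgf21 differed by 0.27 ± 0.25 in fasted and -1.31 ± 0.24 in fed mice, a difference of 1.57 ± 0.34 (0.00463). Within either washing batch the calls of the differences of Rgs16, Ppp1r3g, Inhbb and Fgf21 were lost, while the difference of Slc2a4 kept its call. Igfbp1 differed by -0.05 ± 0.46 in fed mice on HFD, but the difference of 1.70 ± 0.66 between states was not called (adjusted p = 0.154).

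Among the negative differences, Car3, a carbonic anhydrase abundant in male liver, had signals of 14.89 to 15.67 (median 15.22) in fasted LKO and 16.73 to 17.44 (median 17.21) in fasted LWT livers, with no overlap. Its genotype effect was -2.0 ± 0.16 in fasted and -0.35 ± 0.15 in fed mice, a difference of -1.66 ± 0.22 (adjusted p = 7.07e-06). With its probes summarised by their median, these were -3.21 in fasted mice and -4.04 for the difference. Slc22a7, an organic anion transporter, gave -1.71 ± 0.45 (0.0223), Slc41a2, a magnesium transporter, -1.53 ± 0.32 (0.00282), Gbp11, an interferon-induced GTPase, -1.51 ± 0.42 (0.0322) and Nat8 -1.47 ± 0.25 (0.000329). Gbp11 lost the call in 7 of 27 alternatives, among them leaving out LKO replicate 1, 2 or 3. Slc22a7 lost it in 5, with no filter on dim probes, no washing correction, no array weights and within either washing batch. Isg15 fell by 1.37 ± 0.17 in fasted LKO livers and differed by -0.40 ± 0.16 in fed ones, a difference of -0.97 ± 0.23 (0.0114), the only 1 of the 28 interferon-stimulated genes called for the difference. Within washing batches 1 and 2 the Isg15 difference was -0.45 and -1.53, and neither was called. The call of the difference was also lost for Car3 in batch 2 and for Nat8 and Slc41a2 in batch 1.

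The effect was also set against that in fasted mice on CTRL. The difference, HFD minus CTRL, was called for 386 genes (1.87%), 116 positive and 270 negative. This count depended on the washing batch, since 9 were called in batch 1 (0 positive and 9 negative) and 155 in batch 2 (89 positive and 66 negative), with 3 mice per group. Of the 26 cholesterol genes, 13 were called negative and 0 positive, and the median genotype effect was -0.76 on HFD and -0.11 on CTRL. Sqle had a genotype effect of -0.77 ± 0.41 on CTRL and a measured difference of -2.54 ± 0.59 (adjusted p = 0.00921). It was above background on 1 of 6 LKO arrays on HFD, so the size of that difference is not known, and the alternatives gave -2.17 to -3.84. Fdps gave -1.93 ± 0.33 (0.000425), Cyp51 -1.49 ± 0.28 (0.00137), Msmo1 -1.39 ± 0.27 (0.00207) and Dhcr7 -1.40 ± 0.27 (0.0017). Cidec had the most negative of the called differences among the genes named here. Its genotype effect was -3.85 ± 0.43 on HFD and -0.36 ± 0.41 on CTRL, a difference of -3.49 ± 0.59 (0.000448). Scd1 gave -2.17 ± 0.35 (0.000286) and the brightest probe of Acacb -1.95 ± 0.39 (0.00257), against 0.34 with the probes of Acacb summarised by their median. In washing batches 1 and 2 taken alone, the difference was -3.32 and -3.31 for Cidec, -1.77 and -2.23 for Fdps and -2.36 and -2.89 for Sqle. The calls of Cidec, Fdps, Cyp51, Msmo1, Dhcr7 and Scd1 were lost in batch 1. Those of Sqle and of the brightest probe of Acacb were lost in either batch.

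Cidea was lower in LKO livers on either diet, at -8.26 ± 0.50 on HFD and -5.84 ± 0.47 on CTRL, and its difference of -2.42 ± 0.69 (adjusted p = 0.0318) lost its call in 11 of 26 alternatives, among them leaving out LKO replicate 2 or 3 or LWT replicate 1, 2 or 3. Pparg differed by -1.80 ± 0.18 on CTRL, and its difference of 0.33 ± 0.26 was not called. Ly6d, a surface protein of the Ly6 family, differed by -2.78 ± 0.37 on HFD and -0.22 ± 0.35 on CTRL, a difference of -2.55 ± 0.51 (0.0025). Of the macrophage markers, Itgax gave -1.27 ± 0.30 (0.00971). Gpnmb was also called negative, but it was at background in LKO mice on HFD, so the size is not known, and the alternatives gave -0.74 to -2.54, with the call lost in washing batch 2. Of the collagens, Col1a1 gave -1.32 ± 0.37 (0.0281), and of the interferon-stimulated genes, 6 of 28 were called negative, with Cxcl10 at -1.44 ± 0.33 (0.00712). The Col1a1 call was lost without LKO replicate 2 or LWT replicate 2, 3 or 4. It was also lost with no filter on dim probes, with no array weights and within either washing batch. Within either batch the calls of Ly6d, Itgax and Cxcl10 were lost too.

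On the positive side, Krt23 rose on HFD and differed by -0.18 ± 0.27 on CTRL, a difference of 1.83 ± 0.39 (adjusted p = 0.00444). Wif1 was called positive, but it was at background in LWT mice on HFD, so the size is not known, and the alternatives gave 1.17 to 3.20, with the call lost within either washing batch. Dio3os gave 1.75 ± 0.34 (0.00179), Igfbp2 1.38 ± 0.26 (0.00142) and Cyp1a2 1.20 ± 0.22 (0.000932). Within washing batch 1 the calls of Krt23, Dio3os, Igfbp2 and Cyp1a2 were lost, and within batch 2 those of Krt23 and Cyp1a2. Clec2h, a lectin-like receptor, gave 1.81 ± 0.52 (0.0337), while its genotype effect on HFD, 0.61 ± 0.38, was not called. In washing batches 1 and 2 that difference was 0.78 and 2.80, and the call was lost in 8 alternatives, among them batch 1 and leaving out LKO replicate 1, 2 or 3 or LWT replicate 4.

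**Figure D5:**
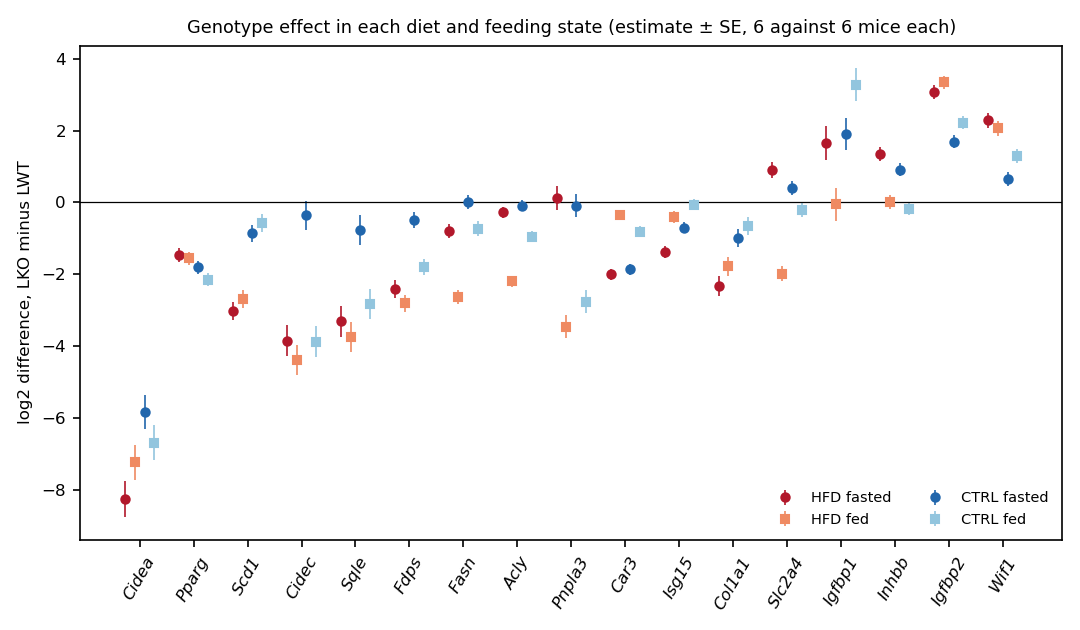
Genotype effect (LKO minus LWT, log2, estimate and SE, 6 against 6 mice) of 17 genes in fasted mice on HFD (red circles), fed mice on HFD (orange squares), fasted mice on CTRL (blue circles) and fed mice on CTRL (light blue squares). Cidea and Pparg are lower in all 4 states, Fasn, Acly and Pnpla3 are lowest in fed mice on HFD, and Cidec, Sqle and Fdps are near or closer to 0 in fasted mice on CTRL.

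Most of the genes called in fasted mice on HFD had the same sign in the other states, none of which shares an array with the comparison. Of the 1345 genes, 771 were also called in fed mice on HFD, 57.3% of those here and 60.3% of the 1279 there, and 767 of them in the same direction. In fasted mice on CTRL 411 were called, 30.6% of those here and 62.0% of the 663 there, and in fed mice on CTRL 541, 40.2% of those here and 70.6% of the 766 there. The sign was the same for 95.4%, 93.3% and 93.5% of the 1345. Their median size was 0.82 on the log2 scale here and, taken in the same direction, 0.67 in fed mice on HFD, 0.42 in fasted mice on CTRL and 0.49 in fed mice on CTRL. Those chosen as called here tend to be larger here, so the sizes are a description. Of the 1345, 103 were also called for the difference between fasted and fed mice and 249 for the difference between HFD and CTRL.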

How the data were processed

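Liver RNA of 48 male mice, 1 array per mouse, was measured on Agilent SurePrint G3 mouse arrays with cyanine 3. The deposited scanner files hold the spot intensity from Agilent Feature Extraction 10.10.1.1 (submitters' processing notes), and the deposited log2 table holds the values the authors filtered, corrected for washing batch and quantile normalized. Here, the median spot intensity in the deposited files was used without control spots, and of 56605 probes the 30793 above background on at least 5 of 6 arrays of 1 group were kept. Log2 values were corrected for washing batch with group means protected, then quantile normalized. The brightest probe of a gene stood for the gene (20599 genes). Probes were named through RefSeq accessions (32994), by a symbol of the array found in that table (10224) or by the array's name alone (13387). The 6 slides held 1 array of each of the 8 groups, and washing batch 1 held 3 of them.

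All 48 arrays entered a fit with limma 3.58.1 (R 4.3.3) and array weights, with Benjamini-Hochberg adjustment over all 30793 kept probes. The fit was checked on data with known changes. The genes named were the 12 largest rises and falls among called, named genes without overlap, the 5 largest differences between states in each direction, and members of the lists. Some genes these rules name are not reported here. The members and lists were chosen with earlier results of these data known, so they describe and do not support. Alternatives were background correction, scaling, filters, batch terms, weights, blocks, probe summary, thresholds and each array left out in turn. Array number limits the precision.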

Additional observations from a re-analysis of the deposited data

Results flagged for a closer look

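For some genes 1 array stood apart from the other 5 of its genotype, by a gap to the nearest array, divided by the range of the group, above the 95% critical value of Dixon. Chance gives this in about 1 in 20 groups, and 15 of 289 groups of the named genes showed it (5.19%). Among LKO arrays this was Elovl5 (replicate 5, highest, 0.79), Gbp2 (replicate 4, highest, 0.63), Hamp (replicate 4, highest, 0.64), Ppp1r3b (replicate 6, lowest, 0.67), Scd1 (replicate 6, lowest, 0.64) and Srebf2 (replicate 6, lowest, 0.65). Among LWT arrays this was Abca1 (replicate 3, highest, 0.63), Adgre1 (replicate 5, highest, 0.75), Alb (replicate 3, highest, 1.0), Hamp2 (replicate 1, lowest, 0.65), Krt19 (replicate 2, highest, 0.66), Ntrk2 (replicate 6, lowest, 0.65), Pdk4 (replicate 2, highest, 0.65), Pik3r1 (replicate 5, lowest, 0.64) and Slc2a4 (replicate 3, lowest, 0.73). The Alb gap was between 18.95 and 18.89 on the log2 scale. The other 11 arrays share the value 18.89 because quantile normalization gives arrays with Alb at the same rank the same value, so Alb is no check of hepatocyte content here. LKO replicate 4, which gave the highest Hamp and Gbp2, also stood nearest the LWT arrays for the interferon-stimulated genes.

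The genotype effect differed between fasted and fed mice on HFD for named genes by the test of the difference (log2, fasted minus fed), Acaca 1.30, Acacb 1.36, Acly 1.93, Car3 -1.66, Elovl6 1.34, Fasn 1.84, Fgf21 1.57, Gbp11 -1.51, Inhbb 1.33, Isg15 -0.97, Nat8 -1.47, Pnpla3 3.58, Pnpla5 3.49, Ppp1r3g 2.45, Rgs16 3.47, Slc22a7 -1.71, Slc2a4 2.89 and Slc41a2 -1.53. Pnpla3 and Pnpla5 were at or near background in fasted mice of both genotypes, so the size of their differences is not known. Between HFD and CTRL in fasted mice (HFD minus CTRL) the same test gave Acacb -1.95, Cidea -2.42, Cidec -3.49, Clec2h 1.81, Col1a1 -1.32, Cxcl10 -1.44, Cyp1a2 1.20, Cyp51 -1.49, Dhcr7 -1.40, Dio3os 1.75, Fdps -1.93, Gpnmb -1.30, Igfbp2 1.38, Itgax -1.27, Krt23 1.83, Ly6d -2.55, Msmo1 -1.39, Scd1 -2.17, Sqle -2.54 and Wif1 1.64. Gpnmb in LKO and Wif1 in LWT mice on HFD were at background, and so was Sqle on 5 of 6 LKO arrays, so the size of these differences is not known either. Both families of differences share the arrays of fasted mice on HFD.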

How the results depend on the processing

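Of 4926 pairs of a named result and an alternative, 4714 stayed on their side of the threshold and, where not called, moved by less than the SD between mice. Of the others, 195 lost the call, 10 gained it, 5 uncalled values moved by more than that SD and 2 called values turned direction. Of the uncalled values, 11 took the other sign, among them Clec2h and Fabp4 in washing batch 1 and Plin5 and Pdk4 in batch 2. Both turned calls were Acacb with its probes summarised by their median, at 0.11 for the genotype effect and 0.34 for the difference between HFD and CTRL, where the other probes of the gene did not follow the brightest. That setting also took Nsdhl to -1.13 and Col1a2 to -0.90. The processed signal scaled to its 75th percentile, which changed signal and scaling together, gave larger sizes for dim genes. Examples were -1.64 for Ccr2, 1.38 for Slc2a4, -1.21 for Top2a and -1.16 for Krt19. The 1345 calls in fasted mice on HFD were 2159 with the processed signal scaled to its 75th percentile, 7598 by adjusted p alone (52.0% higher, against 35.5%) and 422 at fold over 2, and 1258 to 1437 without single arrays. The 287 differences between fasted and fed mice were 187 with no filter on dim probes, 169 with no array weights, 40 and 73 within washing batches 1 and 2, 717 by adjusted p alone and 67 at fold over 2 (74.6% positive, against 52.6%), and 217 to 333 without single arrays. The 386 differences between HFD and CTRL were 247 with no filter, 9 and 155 within batches (0.0% and 57.4% positive, against 30.1%), 1045 by adjusted p alone (42.2%) and 113 at fold over 2 (15.0%), and 292 to 537 without single arrays, with 40.7% positive without LKO replicate 6. Within a batch each group had 3 mice. Other causes were not tested. With the replicate number as a block the 3 counts were 1348, 273 and 377, and with the slide as a block 1307, 285 and 373. Whether equal replicate numbers pair mice is not given in the labels. LKO and LWT arrays of the same number deviated together at r of -0.10 to 0.30, which cannot settle it.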
